A study of Mus musculus with 10 samples.

Results

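Blood vessels of fat are lined by endothelial cells, and the 10 genes described here mark those cells. They were chosen as a list of symbols, Pecam1, Cdh5, Cldn5, Esam, Emcn, Robo4, Aplnr, Erg, Sox17 and Sox18, found among the 47937 gene identifiers of the count tables once the version of each identifier was dropped. All 10 were present and all passed the filter on low counts in every comparison. They were measured by mRNA-seq of visceral white adipose tissue (WAT) from C57BL/6 mice with both copies of Mof (Mof+/+) or with 1 functional copy (Mof+/-), a gene listed as Kat8 that codes for a lysine acetyltransferase. Mice on standard diet (SD) were 8 weeks old and gave 3 libraries of each genotype. Mice on high-fat diet (HFD) were 27 weeks old after 20 weeks of HFD in the series description and gave 2 libraries of each genotype. The article gives a different duration of HFD, and diet and age cannot be told apart. The Mof+/- mice carry the loss in the whole body, so endothelial cells, adipocytes and all other cells of the tissue share it.

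Endothelial cells hold to one another through adherens junctions, where VE-cadherin (Cdh5) joins neighbouring cells, and through tight junctions, where claudin-5 (Cldn5) narrows the gap between them. PECAM-1 (Pecam1) and ESAM (Esam) are immunoglobulin-type adhesion molecules at the same borders. Endomucin (Emcn) is a mucin-like glycoprotein of capillary and venous endothelium, ROBO4 (Robo4) is an endothelial guidance receptor, and the apelin receptor (Aplnr) is a G-protein-coupled receptor of growing and venous endothelium. ERG, of the ETS family, and the SoxF factors SOX17 and SOX18 are transcription factors that set endothelial gene expression. In adipose tissue these cells form a dense capillary bed through which lipids and hormones reach the adipocytes. In whole tissue, fewer endothelial cells and less RNA per endothelial cell cannot be told apart.

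ETS factors bind DNA at a GGAA core, and sequences upstream of 2 members are shown because they differ in the ETS-type motif AGGAAG, one gene of a pair holding it and the other not. RefSeq promoter windows, from 250 bases before to 50 bases after a start, were found for 4 of the 10 members (Cldn5, Emcn, Erg and Robo4). The 250 bases before the start are given 5′ to 3′ on the gene's strand in GRCm38, chr9:37401722-37401971 (+) for Robo4 and chr16:18776597-18776846 (+) for Cldn5, with AGGAAG (either strand) in capitals.
Robo4: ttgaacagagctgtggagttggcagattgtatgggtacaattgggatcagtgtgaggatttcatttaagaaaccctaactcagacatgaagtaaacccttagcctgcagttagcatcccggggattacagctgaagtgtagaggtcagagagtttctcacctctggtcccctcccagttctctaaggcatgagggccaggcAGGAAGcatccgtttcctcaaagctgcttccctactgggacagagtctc
Cldn5: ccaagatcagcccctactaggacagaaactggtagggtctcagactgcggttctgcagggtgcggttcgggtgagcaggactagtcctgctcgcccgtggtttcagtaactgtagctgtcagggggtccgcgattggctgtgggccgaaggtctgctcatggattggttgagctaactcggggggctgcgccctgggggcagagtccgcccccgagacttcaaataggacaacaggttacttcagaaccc
Robo4 held 1 match, 49 bases before the start, and Emcn held 2 matches, 1 of them on the opposite strand. Cldn5 held 0 matches. Erg had 3 windows, of which 1 held a match. Of all 32851 promoter windows of this length, 35.4% held AGGAAG on at least 1 strand. A match is only a string of letters in the window.

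Total counts on genes were 6724618 to 17171947 over the SD libraries, 15483115 and 16014992 for HFD Mof+/+, and 1044355 and 5531786 for the libraries labelled HFD Mof+/-. Kat8 was at 21.5, 21.4 and 20.4 CPM (counts scaled to the library total on genes) in SD Mof+/+ and at 12.2, 18.8 and 11.5 CPM in SD Mof+/-. It was lower in CPM without overlap, but the test did not call it (log2 fold change −0.22 ± 0.35 SE, adjusted p = 0.736, edgeR). On HFD it was at 18.1 and 19.2 CPM in Mof+/+ and at 20.1 and 10.5 CPM in the libraries labelled Mof+/- replicates 1 and 2, so the first of these did not show a reduced level. The library labelled HFD Mof+/- replicate 1 had the lowest total. It had 26.9% of its counts on mitochondrial genes (1.79% to 8.82% in the others) and 7.28% on 12 skeletal muscle genes. These 12 genes summed to 72768 CPM in it and to 1787 CPM in HFD Mof+/- replicate 2, against 10.9 to 89.7 CPM in the other 8 libraries. The X-linked transcript Xist was at 46.1 to 139.1 CPM in SD Mof+/- and at 0 in the other 7 libraries, and 4 Y-linked genes had no counts in SD Mof+/-, although the methods name male mice. Genotype and sex-linked expression therefore cannot be told apart on SD. Column headings within the files exchange the genotypes of the third SD libraries, while their Kat8, Xist and Y-linked values go with the sample labels that were used here. The same headings number HFD Mof+/- replicates 1 and 2 of the labels as 3 and 4.

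All 10 members were detected in each of the 10 libraries except for a Sox17 value of 2 counts in the library labelled HFD Mof+/- replicate 1, under the floor of 3 counts. To compare genes with each other, CPM was divided by the length of all exons of the gene in kilobases. In SD Mof+/+ libraries Cldn5 had the highest level, 170.3 ± 52.0 CPM per kb (s.d., n = 3), followed by Cdh5 with 90.4 ± 40.2 and Pecam1 with 68.6 ± 38.0 CPM per kb. Sox18 and Esam followed with 51.4 ± 23.9 and 50.9 ± 25.3 CPM per kb, and Aplnr had 33.7 ± 20.8 CPM per kb. Robo4 had 18.6 ± 8.5 CPM per kb, Erg 12.4 ± 6.3, Emcn 12.4 ± 5.7 and Sox17 5.55 ± 4.4 CPM per kb. The ranges of neighbouring genes in this order overlapped, but the genes share their libraries, and within libraries 6 of the 9 neighbouring pairs kept this order in all 3. Pecam1 and Sox18, Sox18 and Esam, and Erg and Emcn did not, and with 3 libraries the order of pairs was not tested. In SD Mof+/- libraries Cldn5 was again first, with 80.7 ± 79.8 CPM per kb, and Aplnr was last, with 0.70 ± 0.28 CPM per kb. On HFD the level of Aplnr was 13.7 ± 2.7 CPM per kb in Mof+/+ and 12.3 ± 0.61 CPM per kb in Mof+/- (n = 2), above Robo4, Erg, Emcn and Sox17 in both.

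**Figure D1:**
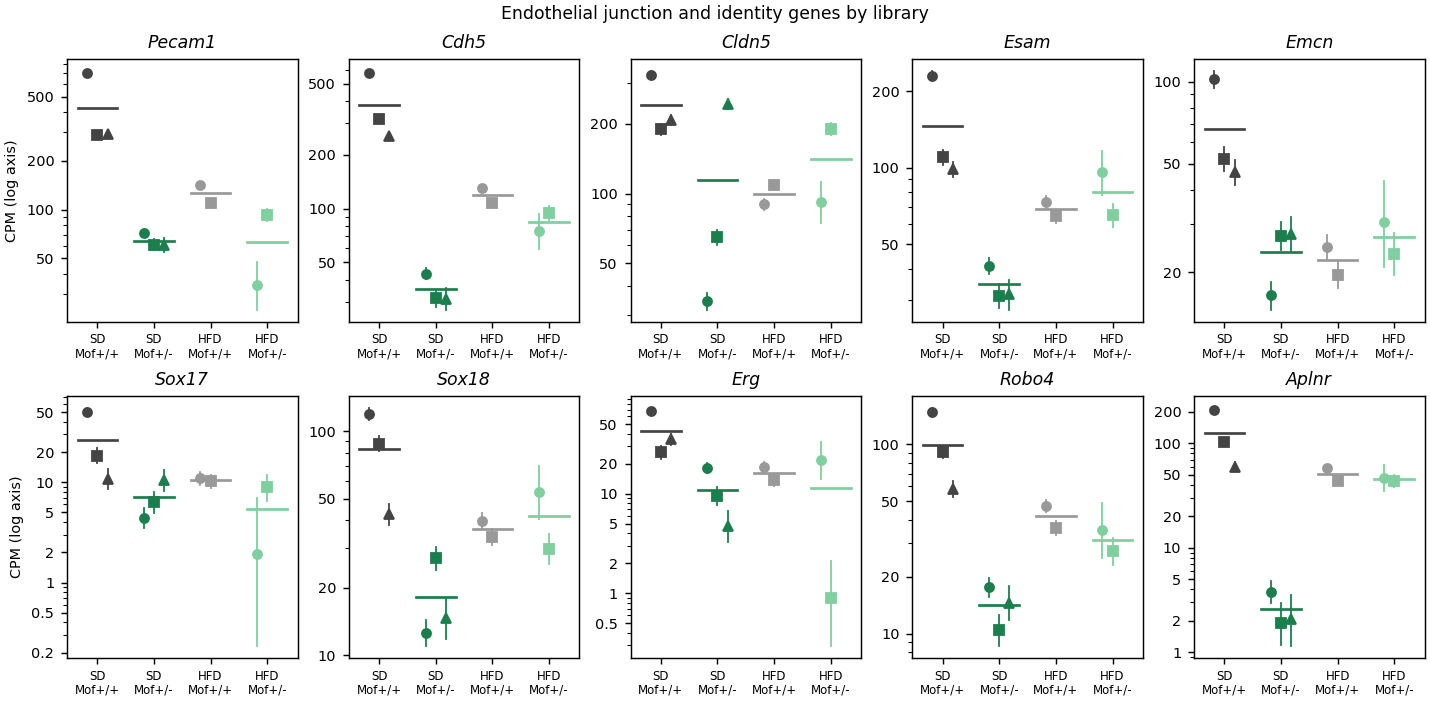
CPM of each of the 10 genes (log axis, a scale of its own per gene) in SD Mof+/+, SD Mof+/-, HFD Mof+/+ and HFD Mof+/- libraries; circles, squares and triangles are replicates 1, 2 and 3, thin vertical lines are 95% Clopper-Pearson intervals and horizontal bars are group means. Aplnr lies at 1.92 to 3.79 CPM in SD Mof+/- and between 43.7 and 209.9 CPM in all other libraries, while Cldn5 of the third SD Mof+/- library lies among the Mof+/+ values.

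The first comparison asked how the genotypes differ before the dietary challenge. On SD, 5 of the 10 genes were lower in Mof+/- than in Mof+/+ WAT at an adjusted p under 0.05 (edgeR quasi-likelihood test), namely Aplnr, Cdh5, Robo4, Pecam1 and Esam, and none was higher. Of all 13864 genes tested, 5.24% were called in either direction and 1.91% were called lower. The median log2 fold change was −1.79 over the 10 genes and −0.07 over all genes tested.

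Among the junction genes, Cdh5 was at 571.7, 315.2 and 253.3 CPM in SD Mof+/+ and at 43.2, 31.6 and 31.2 CPM in SD Mof+/-. The lowest Mof+/+ library was thus far above the highest Mof+/- library, and the fitted level was 8.42-fold lower (log2 fold change −3.07 ± 0.36 SE, adjusted p = 0.0101, edgeR). Pecam1 was at 700.3, 290.1 and 291.8 CPM in Mof+/+ and at 71.9, 60.6 and 60.5 CPM in Mof+/-, with replicate 1 of Mof+/+ the highest and no overlap (5.19-fold lower; log2 fold change −2.38 ± 0.38, adjusted p = 0.0268, edgeR). Esam was at 229.5, 110.0 and 98.3 CPM in Mof+/+ and at 41.1, 31.3 and 31.7 CPM in Mof+/-, again without overlap (3.29-fold lower; log2 fold change −1.72 ± 0.36, adjusted p = 0.0391, edgeR).

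Cldn5 behaved otherwise. It was at 325.4, 189.4 and 208.6 CPM in SD Mof+/+ and at 34.3, 64.9 and 243.4 CPM in SD Mof+/-. The third Mof+/- library exceeded 2 of the 3 Mof+/+ libraries, and the log2 fold change was −0.66 ± 0.66 (adjusted p = 0.569, edgeR). Without that library it was −1.96 (adjusted p = 0.0322; 0.0322 to 0.9998 over the alternatives in edgeR and DESeq2). In that library Cldn5 made up 55.2% of the summed CPM of the 10 genes, against 12.9% to 33.1% in the other 9. Summed CPM of 12 genes of mural cells, the pericytes and smooth muscle cells around vessels, was 465.6, 3412 and 7280 in SD Mof+/- replicates 1, 2 and 3, against 963.8 to 1491 in SD Mof+/+. Among the 3 SD Mof+/- libraries it was thus highest in the one in which Cldn5 was highest. The list did not move as one, since 4 of its genes were called lower in SD Mof+/- and 0 higher. Tagln, a smooth muscle gene, was at 80.3, 1337 and 2928 CPM in those 3 libraries, whereas Rgs5, a pericyte gene, was at 110.0, 94.6 and 98.7 CPM, against 393.1 to 498.0 CPM in SD Mof+/+. Both were named after their values were seen, and the part of these cells in the Cldn5 values was not tested.

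Among the surface proteins, Aplnr had the largest fold change of the 10 genes. It was at 209.9, 104.0 and 60.0 CPM in SD Mof+/+ (1643, 759 and 465 counts) and at 3.79, 1.92 and 2.08 CPM in SD Mof+/- (65, 20 and 14 counts). The Mof+/- libraries thus lay close to one another, and the fitted level was 36.8-fold lower (log2 fold change −5.20 ± 0.55, adjusted p = 0.0061, edgeR). Robo4 was at 147.4, 91.1 and 58.1 CPM in Mof+/+ and at 17.6, 10.5 and 14.6 CPM in Mof+/- (5.43-fold lower; log2 fold change −2.44 ± 0.40, adjusted p = 0.0268, edgeR). Emcn was at 102.1, 52.0 and 46.5 CPM in Mof+/+ and at 16.4, 27.2 and 27.5 CPM in Mof+/-. Its groups did not overlap, and it did not pass the threshold (log2 fold change −1.13 ± 0.39, adjusted p = 0.114, edgeR).

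None of the 3 transcription factors passed the threshold on SD. Sox18 was at 119.6, 87.9 and 42.5 CPM in Mof+/+ and at 12.6, 27.1 and 14.6 CPM in Mof+/- (log2 fold change −1.85 ± 0.45, adjusted p = 0.0503, edgeR). Erg was at 67.4, 26.2 and 35.2 CPM in Mof+/+ and at 18.2, 9.50 and 4.76 CPM in Mof+/- (log2 fold change −1.64 ± 0.53, adjusted p = 0.0947, edgeR). Sox17 was at 50.2, 18.4 and 10.8 CPM in Mof+/+ and at 4.43, 6.33 and 10.6 CPM in Mof+/- (log2 fold change −1.53 ± 0.64, adjusted p = 0.176, edgeR). Its highest Mof+/- library almost reached its lowest Mof+/+ library. In all, CPM was lower in Mof+/- without overlap for 9 of the 10 genes, against 30.6% of all genes tested.

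With a library left out, calls were lost among the members and among all genes. Without SD Mof+/- replicate 2, 0 members and 0.115% of all genes tested were called, Aplnr having an adjusted p of 0.0587 (edgeR). The fold changes were about as large in that fit, with log2 values of −4.99 for Aplnr, −2.96 for Cdh5 and −2.30 for Pecam1. Cdh5 and Aplnr were the 2 members called without SD Mof+/+ replicate 1 or replicate 2, when 0.13% and 0.239% of all genes were called. Without replicate 1 of SD Mof+/+, the library in which each member was highest, the log2 fold changes were nearer to 0, at −4.60 for Aplnr, −0.66 for Sox17 and −0.38 for Cldn5. Without the third library of both genotypes 7 genes were called, Cldn5 and Sox18 added, as were 4.08% of all genes tested, and with the genotypes of these libraries exchanged 0 members and 0 of all genes were called. Under all of the alternatives run, the 10 log2 fold changes stayed below 0.

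Some of the other endothelial genes were called lower in SD Mof+/- WAT too. Of 30 further endothelial surface and secreted proteins, 14 were called lower and 0 higher (edgeR, adjusted p under 0.05), 2 had fitted levels above those of Mof+/+, and their median change was −1.78 on the log2 scale. Among them Vwf, which codes for the clotting factor carrier stored by endothelial cells, was at 150.5 to 512.8 CPM in Mof+/+ and 4.02 to 29.9 CPM in Mof+/- (log2 fold change −3.70 ± 0.72). Cd93 changed by −2.98 ± 0.43 and Tie1, a receptor tyrosine kinase of endothelium, by −2.86 ± 0.44 on the log2 scale. Their summed CPM was 2798 to 6374 in Mof+/+ and 1271 to 1308 in Mof+/-.

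Of 22 other endothelial transcription factors, 21 were tested and 5 were called lower, the median of the log2 fold changes being −1.33. They included Mecom (−3.67 ± 0.77), the third SoxF gene Sox7 (−2.73 ± 0.42) and the ETS gene Ets2 (−2.29 ± 0.31). Sox7 was at 30.5 to 47.1 CPM in Mof+/+ and at 2.78 to 5.53 CPM in Mof+/-, so that it passed the threshold where Sox17 and Sox18 did not. Of the 21, 3 had a log2 fold change above 0, up to 1.39, and none of these was called. Klf2 and Klf4, factors induced by shear stress, are on the same list and were not among those called. Klf2 was at 55.8, 30.3 and 84.7 CPM in Mof+/+ and at 126.4, 60.1 and 156.0 CPM in Mof+/-, so its groups overlapped. Klf4 was at 34.8 to 68.5 CPM in Mof+/+ and at 190.5, 45.9 and 52.0 CPM in Mof+/-, high in 1 library.

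Of 20 partners of the junction proteins, 19 were tested and 2 were called lower, the median of the log2 fold changes being −0.48, with 6 of the 19 above 0. The genes called were Ptprb, the phosphatase that associates with VE-cadherin (−3.07 ± 0.58, from 180.8 to 471.9 CPM in Mof+/+ down to 9.22 to 45.1 CPM in Mof+/-), and Afdn, the junction scaffold afadin (−2.13 ± 0.38). Among 9 ligands and partners of ROBO4 and the apelin receptor, 6 were tested, 2 were called lower and 2 had log2 fold changes above 0, up to 2.20, the median being −0.13. Apln, the ligand of the apelin receptor, was at 15.4 to 27.4 CPM in Mof+/+ and 0.74 to 2.59 CPM in Mof+/- (log2 fold change −3.12 ± 0.60, adjusted p = 0.0355, edgeR), and the ROBO4 partner Unc5b changed by −1.86 ± 0.38. Receptor and ligand were therefore both lower. Robo1, a receptor of the same family as ROBO4, was at 2.55, 2.33 and 5.81 CPM in Mof+/+ and at 15.3, 11.6 and 11.5 CPM in Mof+/-, so that the groups did not overlap, and it was not called. The second ligand, Apela, had at most 7 counts in any library.

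Marker sums of other cells differed between the SD groups as well. The 10 adipocyte genes summed to 35299 to 43204 CPM in Mof+/+ and 63121 to 92707 CPM in Mof+/-, and 5 of 10 were called higher. The 6 mesothelial genes summed to 23.8 to 59.1 CPM in Mof+/+ and 169.8 to 349.1 CPM in Mof+/-, and 4 of 6 were called higher. Of the 12 mural genes, 4 were called lower, and of 7 lymphatic endothelial genes 1 was called lower and 1 higher. The 9 macrophage genes summed to 1263 to 2130 CPM in Mof+/+ and 1960 to 2243 CPM in Mof+/-, and 3 of 9 were called higher. The 8 stromal genes summed to 2144 to 3031 CPM and 1947 to 4915 CPM, with all 8 log2 fold changes above 0 and 2 called. Of 7 glial genes 5 were tested and 2 called lower, their sums being 308.6 to 1232 CPM in Mof+/+ and 216.7 to 293.0 CPM in Mof+/-. Of 9 lymphocyte genes 8 were tested, all with log2 fold changes below 0 (median −3.00) and 0 called. They summed to 580.6 CPM in SD Mof+/+ replicate 3 and to 11.1 to 79.9 CPM in the other 9 libraries. The lymphatic chemokine gene Ccl21a had at most 1 count in any library. The part of these cell types in the lower values of the 10 genes was not tested.

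**Figure D2:**
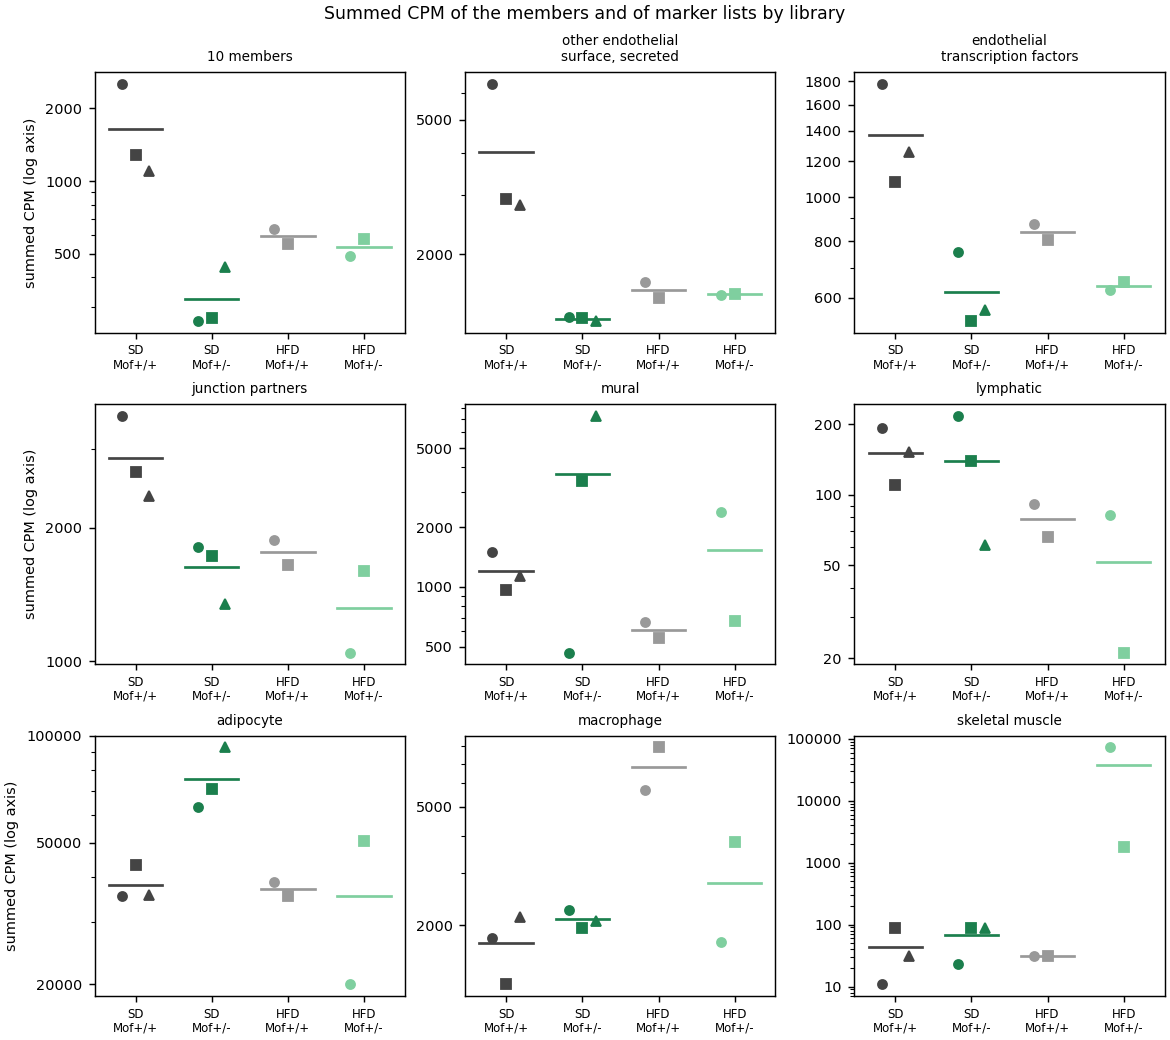
Summed CPM (log axis, a scale of its own per panel) of the 10 genes and of 8 marker lists in the libraries of the 4 groups; circles, squares and triangles are replicates 1, 2 and 3, and bars are group means. The 10 genes sum to 1105 to 2523 CPM in SD Mof+/+ and 263.4 to 440.9 CPM in SD Mof+/-, while adipocyte genes are higher in SD Mof+/- and macrophage genes are highest in HFD Mof+/+.

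On HFD the genotypes were compared in 2 libraries each. No member was called (edgeR), as for all 14120 genes tested, of which 0% were called. At an unadjusted p under 0.05 there were 1732 of all genes and 0 of the 10 members, and DESeq2 called 209 genes, none of them a member. The log2 fold changes of the members ran from −0.69 ± 0.48 for Pecam1 to 0.80 ± 0.38 for Cldn5, with a median of 0.05, against −0.24 over all genes tested.

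Cdh5 was at 130.3 and 106.7 CPM in HFD Mof+/+ and at 74.7 and 94.4 CPM in HFD Mof+/- (log2 fold change −0.16 ± 0.29). Aplnr was at 57.8 and 43.8 CPM in Mof+/+ and at 46.9 and 43.7 CPM in Mof+/-, nearly level (0.17 ± 0.39). Robo4 was at 47.0 and 36.2 CPM in Mof+/+ and at 35.4 and 27.3 CPM in Mof+/- (−0.06 ± 0.48). These fits scale by TMM and CPM by the total, so a small fold change can differ in sign from the CPM means, as for Aplnr. CPM of the genotypes did not overlap for Pecam1, Cdh5, Sox17 and Robo4, 4 of the 10 genes, against 54.4% of all genes tested.

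The libraries labelled HFD Mof+/- were unlike each other in several members. Pecam1 was at 34.5 and 92.7 CPM in replicates 1 and 2, against 143.1 and 109.3 CPM in HFD Mof+/+. Erg was at 22.0 CPM (23 counts) in replicate 1 and at 0.90 CPM (5 counts) in replicate 2, on either side of the 18.7 and 13.8 CPM in Mof+/+. Sox17 was at 1.92 CPM (2 counts, 95% interval 0.23 to 6.92) and 8.86 CPM, against 10.98 and 10.24 CPM. Cldn5 was at 91.9 and 190.7 CPM, against 90.1 and 108.9 CPM. Thus the library with the lower Pecam1 and Sox17 had the higher Erg.

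Esam was at 95.8 and 64.9 CPM in HFD Mof+/- and 73.0 and 64.3 CPM in HFD Mof+/+. Sox18 was at 53.6 and 29.8 CPM, against 39.7 and 33.7 CPM, and Emcn was at 30.6 and 23.3 CPM, against 24.7 and 19.5 CPM. For these 3 genes the genotypes overlapped. Without the library labelled HFD Mof+/- replicate 1, Cldn5 and Erg were called, and without replicate 2, Pecam1, Esam, Emcn, Sox17 and Sox18 were called (edgeR, the remaining library taken to vary like the Mof+/+ libraries). Of all genes tested, 27.2% were called in the first of these fits and 47.9% in the second, shares near those of the members. All 12 skeletal muscle genes had a higher fitted level in HFD Mof+/- with an unadjusted p under 0.05 (edgeR, 0 called), and the part of muscle RNA in the values of the members was not tested.

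**Figure D3:**
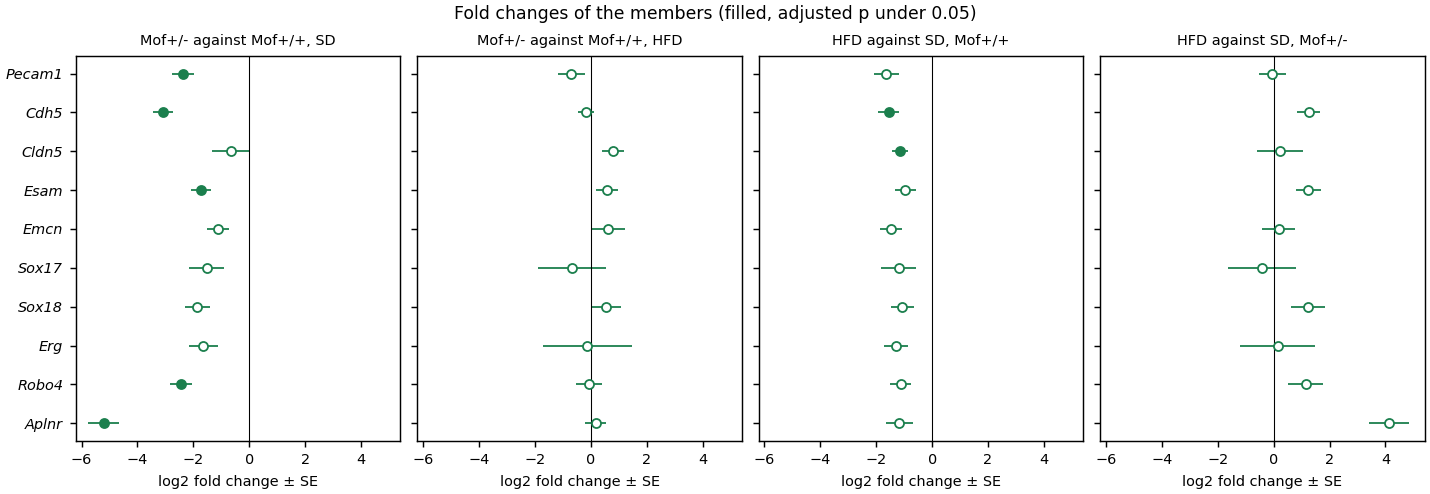
Log2 fold changes ± SE of the 10 genes (edgeR) for Mof+/- against Mof+/+ on SD and on HFD, and for HFD against SD in Mof+/+ and in Mof+/-; filled points have an adjusted p under 0.05. All 10 are below 0 between the genotypes on SD and between the diets in Mof+/+, from −5.20 to −0.66 and from −1.64 to −0.96, and Aplnr lies at 4.13 between the diets in Mof+/-.

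Feeding was then compared within Mof+/+ mice. All 10 genes had lower fitted levels on HFD than on SD, and 2 were called, Cdh5 and Cldn5 (edgeR, adjusted p under 0.05). Of all 14939 genes tested, 9.75% were called in either direction and 3.73% were called lower. The median log2 fold change was −1.18 over the 10 genes and −0.04 over all genes tested. This comparison uses the same SD Mof+/+ libraries as the genotype comparison on SD.

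Cdh5 fell from 253.3 to 571.7 CPM on SD to 130.3 and 106.7 CPM on HFD, 2.94-fold (log2 fold change −1.56 ± 0.37, adjusted p = 0.0448, edgeR). Cldn5 fell from 189.4 to 325.4 CPM to 90.1 and 108.9 CPM, 2.22-fold (−1.15 ± 0.28, adjusted p = 0.0468, edgeR). Both groups were apart for both genes. Pecam1 (log2 fold change −1.64 ± 0.43, adjusted p = 0.0593) and Emcn (−1.47 ± 0.38, adjusted p = 0.0547) came next in edgeR and did not pass.

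The other 6 members had log2 fold changes from −1.28 ± 0.43 for Erg to −0.96 ± 0.38 for Esam, with Aplnr (−1.17 ± 0.49) between them. Without SD Mof+/+ replicate 1 these 6 ran from −0.79 for Erg to −0.34 for Sox17, and Aplnr was at −0.57. CPM was lower on HFD without overlap for 9 of the 10 genes, all but Sox17, against 28.2% of all genes tested. Leaving out replicate 1 or 2 of SD Mof+/+ left 0 members called, and 1.63% and 5.87% of all genes tested. Leaving out replicate 1 or 2 of HFD Mof+/+ also left 0, and 1.49% and 0.384% of all genes. Without SD Mof+/+ replicate 3 there were 7 members and 14.9% of all genes, and in the fit of all 10 libraries 0 members and 0.893% of all genes. The library totals were 7301119 to 7829250 counts on SD and higher in both HFD libraries.

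In the further lists, 5 of 30 endothelial surface and secreted proteins were called lower on HFD in Mof+/+ (median of the log2 fold changes −1.28), among them Cyyr1 (−2.74 ± 0.44), Vwf (−2.71 ± 0.57) and Clec14a (−2.04 ± 0.45). Of 22 other endothelial transcription factors 2 were called lower, Tcf15 (−1.73 ± 0.32) and Sox7 (−1.49 ± 0.30). Lmo2, also active in blood cells, was called higher (1.12 ± 0.26). Of 20 junction partners 4 were called lower, among them Ptprb (−1.99 ± 0.47), the tight junction scaffold Tjp1 (−1.63 ± 0.38) and the junctional adhesion molecule F11r (−1.38 ± 0.26). Rap1b, a small GTPase that is also abundant in blood cells, was called higher (0.99 ± 0.20). Of the 6 ligands and partners tested, Slit3, a ligand of ROBO receptors, was called lower (−1.45 ± 0.23).

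The 9 macrophage genes summed to 1263 to 2130 CPM in SD Mof+/+ and to 5710 and 7937 CPM in HFD Mof+/+, and 7 of 9 were called higher. Mural genes summed to 963.8 to 1491 CPM on SD and 661.8 and 552.3 CPM on HFD, with 5 of 12 called lower. Of 7 lymphatic genes, 6 were tested, 4 were called lower and 1 higher. The part of these cells in the lower values of the 10 genes was not tested.

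In Mof+/- mice the diets gave another picture. No member was called (edgeR), and 0% of all 13610 genes were called. At an unadjusted p under 0.05 there were 1166 of all genes and 3 members, Aplnr, Cdh5 and Esam, each higher on HFD, and DESeq2 called 399 genes, of the members only Aplnr. The median log2 fold change was 0.69 over the 10 genes and −0.26 over all genes tested. The SD group here is the one with Xist counts and no Y-linked counts, so that diet, age and sex-linked expression cannot be told apart.

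Aplnr was at 1.92 to 3.79 CPM in SD Mof+/- and at 46.9 and 43.7 CPM in HFD Mof+/- (log2 fold change 4.13 ± 0.70, adjusted p = 0.143, edgeR; 3.62e-07 to 0.659 over the alternatives). Its HFD libraries were close to each other despite the difference in their other members. Cdh5 was at 31.2 to 43.2 CPM on SD and at 74.7 and 94.4 CPM on HFD (log2 fold change 1.26 ± 0.41). Esam (1.23 ± 0.44), Sox18 (1.23 ± 0.62) and Robo4 (1.15 ± 0.62) had log2 fold changes of like size, and the CPM of the diets did not overlap in these 5 genes, against 27.6% of all genes tested in either direction. Pecam1 (−0.04 ± 0.47), Cldn5 (0.22 ± 0.82), Emcn (0.18 ± 0.60), Erg (0.14 ± 1.34) and Sox17 (−0.42 ± 1.21) overlapped. The 12 skeletal muscle genes had higher fitted levels on HFD here too, each with an unadjusted p under 0.05. All 8 stromal genes (median −1.88) and all 6 mesothelial genes (median −2.36) had log2 fold changes below 0, as did 9 of 10 adipocyte genes (median −0.94), with an unadjusted p under 0.05 for 6, 1 and 2 of them. Of 12 mural genes 8 had such a p, and 8 were above 0 and 4 below. None of these genes was called (edgeR), and their part in the values of the members was not tested.

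The interaction of genotype and diet tests whether the genotype difference on HFD differs from that on SD. It was called for 1 of the 10 genes, Aplnr (log2 difference 5.27 ± 0.77, adjusted p = 0.0341, edgeR), and for 0.0881% of all 15897 genes tested. Aplnr was at or above 43.7 CPM in every library of the other 3 groups and at or below 3.79 CPM in every SD Mof+/- library. The adjusted p of Aplnr ranged from 2.44e-08 to 0.736 over the alternatives, and the call was lost without any 1 of 7 libraries, namely SD Mof+/+ replicates 1 and 2, the 3 SD Mof+/- libraries and both HFD Mof+/+ libraries, with log2 differences between 4.72 and 5.70.

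The interaction was above 0 for all 10 genes, from 0.85 ± 1.15 for Sox17 upwards, with a median of 1.92 against −0.41 over all genes tested. Cdh5 had 2.81 ± 0.53 (adjusted p = 0.0957), Sox18 2.28 ± 0.74 (adjusted p = 0.286), Robo4 2.26 ± 0.64 (adjusted p = 0.213) and Esam 2.19 ± 0.59 (adjusted p = 0.193) in edgeR. None of the 4 passed. Sox17 and Erg had values below 0 when single libraries were left out. Without HFD Mof+/- replicate 2, all 4 and Aplnr were called, and so were 17.7% of all genes tested. In that fit HFD Mof+/- is the single library with the lowest total and 26.9% of counts on mitochondrial genes.

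The mix of members changed between libraries as well. Pecam1, Cdh5 and Cldn5 together made up most of the summed CPM in SD Mof+/+, where Pecam1 took 22.6% to 27.8%, Cdh5 22.7% to 24.5% and Cldn5 12.9% to 18.9%. Aplnr took 5.43% to 8.32% in SD Mof+/+, 0.472% to 1.44% in SD Mof+/- and 7.59% to 9.63% in the 4 HFD libraries. Its share was thus low in 1 group only, as were its levels. Cdh5 took 7.08% to 16.4% in SD Mof+/-, and Esam 7.18% to 15.6%, against 8.56% to 9.10% in SD Mof+/+. Within SD Mof+/+, replicate 1 was the highest library for each of the 10 genes, with a sum of 2523 CPM against 1284 and 1105 CPM.

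**Figure D4:**
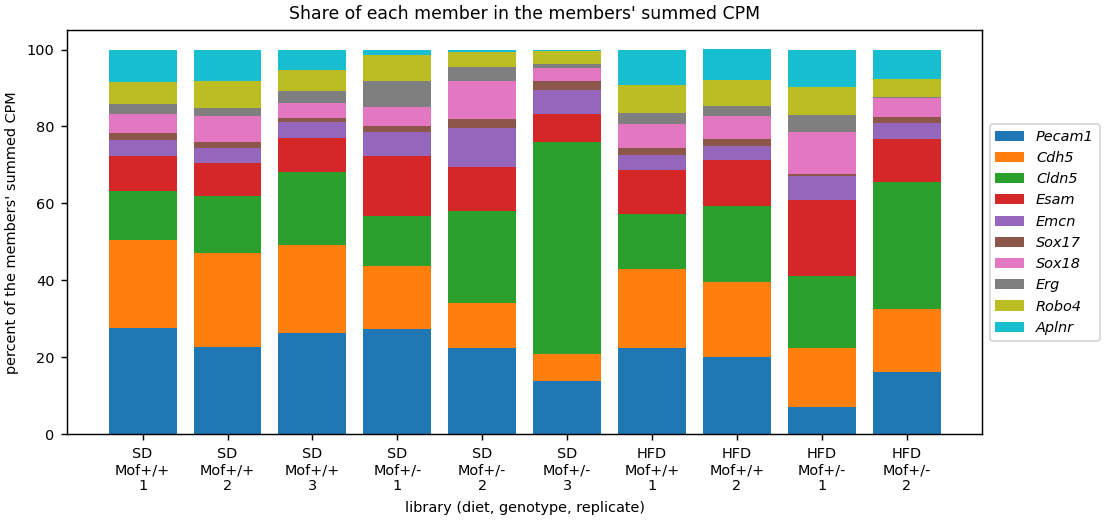
Share of each of the 10 genes in their summed CPM (percent, stacked to 100) in the 10 libraries. Cldn5 takes 55.2% in the third SD Mof+/- library, and Aplnr takes 0.472% to 1.44% in the SD Mof+/- libraries and at least 5.43% in all others.

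The members differ in length, from 1416 exon bases in Cldn5 (chromosome 16, 18776847 to 18778262 in GRCm38) and 1620 in Sox18 (chromosome 2, 181669836 to 181671640) to 6228 in Pecam1 (chromosome 11, 106654217 to 106750628). For each library, a gene's log level relative to its mean over the 10 libraries was rank-correlated with exon length across genes. The correlation was 0.23 to 0.31 in SD Mof+/+ and 0.08, −0.15 and −0.29 in SD Mof+/- replicates 1, 2 and 3. It describes genes that share a library. With a length trend taken out per library, 6 members were called between the genotypes on SD, Sox18 added, as were 2.75% of all genes tested, and Cldn5 had a log2 fold change of −1.63 (adjusted p = 0.119, edgeR). Aplnr (chromosome 2, 85136225 to 85139923; 3699 exon bases) had −5.22 and Cdh5 (chromosome 8, 104101625 to 104144511; 4203 exon bases) is of like length. The library kit does not mark strand, and Sox17 (chromosome 1, 4490931 to 4497354) shares 804 exon bases with Gm37587 on the opposite strand, which had 5 counts over the 10 libraries. Esam and Robo4 both lie on chromosome 9, from 37528078 to 37538319 and from 37401897 to 37415115, and Erg on chromosome 16 from 95359169 to 95586593, Emcn on chromosome 3 from 137341067 to 137432185.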

How the data were processed

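The authors ran snakePipes with STAR on GRCm38, assigned reads to genes by featureCounts (Subread 1.5.0-p1) and deposited raw counts per gene for each library, without normalization. Libraries were made from polyA RNA with a kit that does not mark strand. Samples were grouped by their labels. CPM is the count divided by the library's total on genes. Tests between groups used the quasi-likelihood method of edgeR 4.0.16 with TMM scaling and filterByExpr, on the libraries compared, the interaction on all 10 libraries, with Benjamini-Hochberg adjustment over all genes tested and a threshold of 0.05. The p-values measure the spread between these libraries, which the labels call biological replicates. Totals of 1044355 to 17171947 counts set the precision, with a floor of 3 counts and 95% Clopper-Pearson intervals, which cover counting error only.

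Of 47937 identifiers, 47224 matched a symbol with the version dropped. Coordinates and exon lengths came from GENCODE M21, promoters from RefSeq (GRCm38.p6). Named genes were the 10 members, Kat8 and, from each of 4 endothelial lists, up to 3 genes per direction with the largest change among those called. Klf2, Klf4, Robo1, Apela, Ccl21a, Tagln, Rgs5 and Xist fall outside this rule and were named after their values were seen. Members and lists were chosen with earlier results of these data known. Alternatives were DESeq2 1.42.0, its size factors, other count filters, the replicate number as a block, a single fit, a length trend, scaling without muscle and mitochondrial genes, each library left out, and the third SD libraries exchanged or left out. Scaling by library totals was chosen after seeing the data. Scripts were tested on simulated data. R 4.3.3, Python 3.11.15, pandas 2.3.3, SciPy 1.17.1 and matplotlib 3.10.9 were used.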

Additional observations from a re-analysis of the deposited data

Results flagged for a closer look

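The difference of Aplnr between the groups labelled Mof+/- and Mof+/+ differed between the diets by a test of the interaction, which was 5.27 on the log2 scale (adjusted p = 0.0341, edgeR; 2.44e-08 to 0.736 over the alternatives). The call was lost without any 1 of 7 libraries and with the third SD libraries exchanged or left out. On SD, genotype and sex-linked expression cannot be told apart. For 4 further members every HFD library was below every SD library in Mof+/+ and above every SD library in Mof+/-. Of the 13144 genes tested in both genotypes, 2% had this pattern, and 4.72% had opposite differences without overlap in either direction. Their interactions were 2.81 for Cdh5, 2.19 for Esam, 2.28 for Sox18 and 2.26 for Robo4 on the log2 scale, and none of the 4 passed the threshold.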

How the results depend on the processing

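Between the genotypes on SD, the number of members called (5) stayed within 1.5-fold under 9 of the 11 alternatives other than leaving out a library. It was 8 with no filter on low counts (8.35% of all genes tested) and 0 with the third SD libraries exchanged (0%). With each library left out it was 0 to 5 (0.115% to 6.89%). Between the diets in Mof+/+ (2 members) it was 6 with DESeq2 (20% of all genes tested), 4 with no filter (8.01%) and 4 with at least 10 counts in every library (16.5%). It was 6 with the replicate block (9.77%), 0 in a single fit of all libraries (0.893%) and 0 with the third libraries exchanged (0%). Without the third libraries it was 7 (14.9%), and with each SD library left out it was 0 to 7 (1.63% to 14.9%). Between the genotypes on HFD (0 members) it was 0 to 5 with each library left out and 0 otherwise. Between the diets in Mof+/- (0 members) it was 1 with DESeq2 (2.93% of all genes tested), with no filter (2.1%) and with at least 10 counts (0.363%). It was also 1 in a single fit (1.19%) and with the length trend (0.662%), and 0 with each SD library left out (0%). For the interaction (1 member) it was 4 with DESeq2, 3 with no filter, 2 with at least 10 counts, 0 with the third libraries exchanged or left out, and 0 to 5 with each library left out. Of all genes tested for the interaction, 3.04% were called with DESeq2, 1.62% with no filter and 0.538% with at least 10 counts. Except where a library was left out or exchanged, the cause of the changes in these counts was not tested. With at least 10 counts in every library, Sox17 and Erg gave no value in fits with HFD Mof+/- libraries.

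Some log2 fold changes that were not called changed sign. Between the genotypes on HFD the length trend gave 0.45 for Pecam1, 1.18 for Cdh5, 0.17 for Sox17, 1.82 for Erg and 1.53 for Robo4. The members that kept their sign rose as well, with 1.61 for Aplnr, 2.07 for Esam, 2.23 for Emcn, 1.95 for Sox18 and 1.68 for Cldn5. That fit moved the median over all genes tested from −0.24 to 0.79, and Pecam1 and Sox17 stayed below it. Library totals gave −0.17 for Aplnr and a median of −0.54. Leaving out each library gave −0.13 to 0.94 for Sox18, −3.98 to 0.83 for Erg, −0.44 to 0.16 for Robo4 and −0.048 to 0.36 for Aplnr. Between the diets in Mof+/- the length trend gave 0.70 for Pecam1 and 0.035 for Sox17, while it moved the median over all genes from −0.26 to 0.56. The exchanged libraries gave −0.022 for Cdh5 and −0.57 for Erg, and their omission gave 0.054 for Sox17 and −0.18 for Erg. Erg was at −1.42 with the replicate block and −0.012 in a single fit. Leaving out each library there gave −0.80 to 0.41 for Pecam1, −0.26 to 1.54 for Cldn5, −0.15 to 0.47 for Emcn, −1.80 to 0.18 for Sox17 and −3.66 to 1.14 for Erg. For the interaction it gave −0.60 to 1.44 for Sox17 and −2.35 to 2.40 for Erg.

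Same-numbered SD libraries of the genotypes did not deviate together (correlations of 0.005 to 0.008). In the HFD groups of 2 libraries the deviations from the group mean mirror each other. Pairs there could only give equal and opposite values (0.026 and −0.026 between the genotypes), so the check cannot decide on pairing with HFD libraries. The file headings number the HFD Mof+/- libraries otherwise. With the replicate block, 5 members (3.09% of all genes) were called between the genotypes on SD, 6 (9.77%) between the diets in Mof+/+, 1 (0.0629%) in the interaction and 0 in the others (1.42% in the HFD genotype comparison and 1.8% for diet within Mof+/-).

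Of all genes, 727 were called between the genotypes on SD, against 2209 with DESeq2, 1840 with no filter, 1235 with at least 10 counts, 428 with the replicate block, 194 in a single fit, 380 with the length trend and 17 to 1026 with a library left out. Between the diets in Mof+/+ the count was 1457, against 2982 with DESeq2, 142 in a single fit, 2230 without the third libraries and 64 to 2230 with a library left out. Both counts were 0 with the third libraries exchanged. On HFD it was 0 between the genotypes, against 209 with DESeq2, 200 with the replicate block and 97 with the length trend, and 92 to 7551 with a library left out. Between the diets in Mof+/- it was 0, against 399 with DESeq2, 429 with no filter, 245 with the replicate block, 189 in a single fit and 0 to 2122 with a library left out. For the interaction it was 14, against 483 with DESeq2, 380 with no filter and 4 to 3164 with a library left out. Library totals in place of TMM moved the median of all genes from −0.07 to −0.43 between the genotypes on SD, where 462 were called higher and 265 lower with TMM and 164 higher and 541 lower with totals. In Mof+/+ the diets gave 900 higher and 557 lower with TMM and 647 higher and 781 lower with totals. Depth limits Sox17 in HFD Mof+/- replicate 1, where it had 2 counts.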
